A study of Equus caballus with 9 samples.

Results

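The comparison described here sets cells cultured from the blood of horses after electroacupuncture against cultured bone marrow cells, gene by gene across the array. It holds 6 of the 9 arrays of the series. Of the 30559 probe sets on each array, 16789 map to 1 gene symbol in the platform annotation and are described, and they stand for 16661 genes. A further 343 probe sets name several genes and 13427 name none.

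The blood-derived group (labelled EA-ADSC) consists of 3 horses that were treated by electroacupuncture, the stimulation of acupuncture points by current through needles, and bled 2 h later. The bone marrow group (labelled BM-MSC) consists of 3 other horses that received no treatment. In both groups mononuclear cells were separated on Ficoll, kept for 96 h on plastic in medium with 15% fetal bovine serum, and the cells that stayed attached gave the RNA. From each sample 100 ng of total RNA was amplified and hybridised to 1 array. Source of the cells, treatment and horse differ together between the groups and cannot be told apart. The 3 arrays of adipose cells from untreated horses entered the model only through the estimate of the spread. A gene with close values within both groups compared can therefore miss the threshold where its adipose values are far apart.

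Values are deposited log2 intensities, 1 per probe set and array, and are listed in the order of replicates 1, 2 and 3. A log2 difference is the mean of the blood-derived arrays minus the mean of the bone marrow arrays, and a fold is taken from it. A gene rose or fell where limma's moderated test gave an adjusted p under 0.05, with Benjamini-Hochberg adjustment over all probe sets. Precision is limited by having 3 arrays per group: log2 differences had a median standard error of 0.19. Each call was repeated in 9 fits that leave out 1 array each, and the number of fits that kept it is given. The median of all values was 4.62, and the files do not show how far lower values exceed background, so folds that involve a group mean under it hold for the deposited values only.

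The label of mesenchymal cells was set against marker genes. THY1, a surface glycoprotein of stromal cells, was at 10.81, 10.72 and 10.36 in the blood-derived arrays and at 9.90, 9.48 and 10.40 in the bone marrow arrays. ENG, a co-receptor for TGF-beta, lay between 6.90 and 7.19 in the blood-derived arrays and between 6.93 and 6.98 in the bone marrow arrays. PTPRC, the CD45 antigen of all leukocytes, was at 3.10, 3.21 and 3.01 in the blood-derived arrays, against 4.02, 3.38 and 4.51 in the bone marrow arrays. THY1 and ENG were above the overall median of the values in all 6 arrays, and PTPRC was below it in all 6. Of the 22 mesenchymal stromal markers measured, 13 lay above that median in all 6 arrays, as did 5 of the 13 pan-leukocyte markers. In the blood-derived arrays 14 of the mesenchymal markers did so, and in the bone marrow arrays 17. For the pan-leukocyte markers these counts were 5 and 7. Log2 differences of the mesenchymal markers ran from -4.88 to 2.97, with a median of 0.12, so single markers were not level between the groups. Of the 22 markers 3 rose and 1 fell, against 0.564% and 0.696% of all genes.

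Cultured stromal cells attach to plastic, divide and lay down matrix, and they answer interferons and other inflammatory signals. Genes of DNA replication and mitosis are switched on together in dividing cells, so their level in a culture follows the share of cells in cycle. Interferon-stimulated genes encode antiviral and antigen-presenting proteins and are induced together through the STAT and IRF transcription factors. Both programs are known to vary with culture and donor.

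Bone marrow replicate 3 stood apart from the other bone marrow arrays. Among probe sets naming 1 gene, 152 spanned more than 2 log2 units within the bone marrow group, and bone marrow replicate 3 was the array farthest from the middle one in 130 of them. Replicates 1 and 2 were the farthest in 12 and 10. In the blood-derived group 163 probe sets spanned that much, with replicates 1, 2 and 3 farthest in 74, 43 and 46. CXCL10, an interferon-induced chemokine, was at 3.90, 4.10 and 11.74 in the bone marrow arrays. TPSB2, a mast cell tryptase, was at 3.13, 2.85 and 9.14 in the same arrays. The correlation of arrays across probe sets, which are no replicates, was 0.970 to 0.978 within the blood-derived group, 0.975 to 0.982 within bone marrow and 0.954 to 0.965 between them.

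Most log2 differences between the blood-derived and bone marrow cells were small, which does not by itself show equal levels. Probe sets under the overall median of 4.62, whose signal over background is not known, are counted among them. The quartiles of the log2 differences were -0.15 and 0.15, their median was 0.002, and 6860 probe sets (40.9%) had a 95% interval of the difference within -0.5 to 0.5. Past the threshold, 94 probe sets naming 1 gene rose in the blood-derived cells, 0.560% of those tested, and 120 fell, 0.715% of those tested. Together the 214 calls were 1.27% of these probe sets, and over the whole array 249 were called, or 0.815%, with 107 rises (0.350%) and 142 falls (0.465%). Of the 214 calls, 49 were at least 4-fold rises and 49 at least 4-fold falls. A further 25 were under 2-fold, 6 rises and 19 falls, and the smallest had an absolute log2 difference of 0.62. In each called gene the 3 arrays of one group lay beyond the 3 of the other. By contrast, 790 probe sets differed by at least 2-fold whether called or not, 417 higher and 373 lower. The call was kept in all 9 fits without 1 array by 57 of the 214 probe sets, 22 higher and 35 lower. Another 35 called probe sets named no gene or several.

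**Figure D1:**
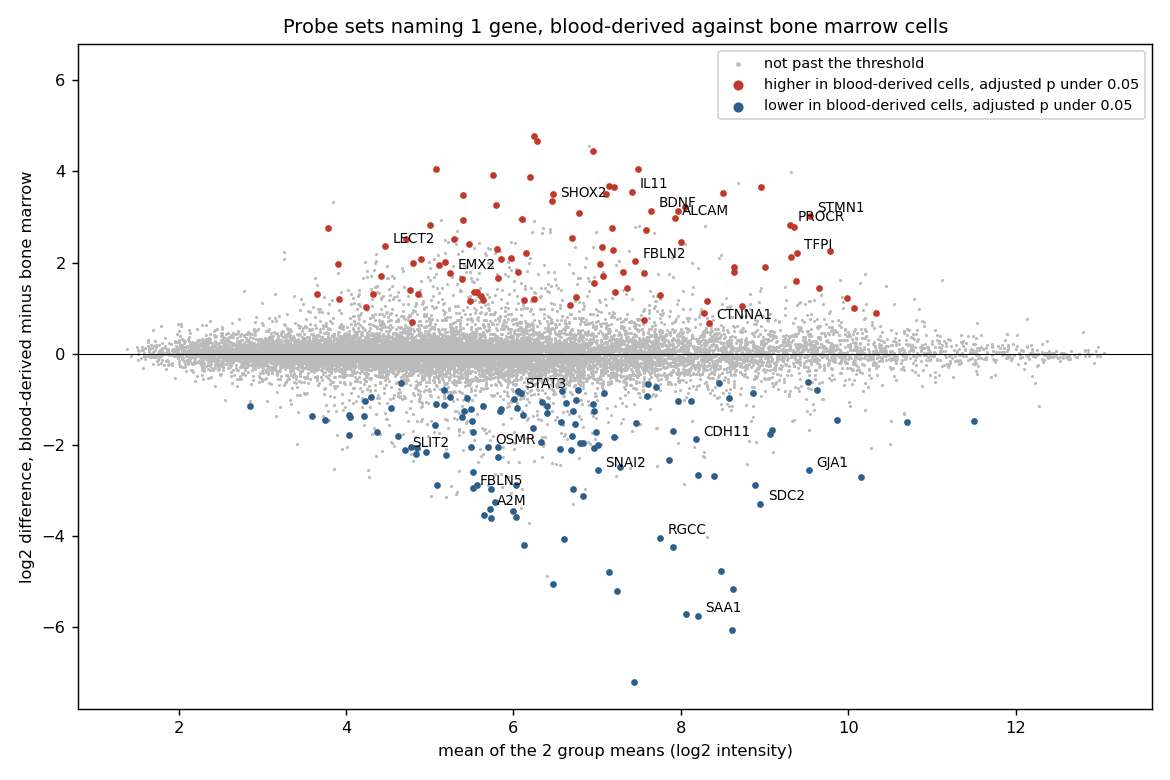
Each point is 1 of the 16789 probe sets naming 1 gene, placed by the mean of the 2 group means (x axis, log2 intensity) and by the log2 difference, blood-derived minus bone marrow (y axis). The 94 red points rose and the 120 blue points fell at an adjusted p under 0.05, and named examples are marked. The falls reach farther from 0 than the rises.

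The largest falls were those of an unnamed locus and of serum amyloid A. The locus LOC100067869 was at 4.19, 3.68 and 3.65 in the blood-derived arrays and at 11.36, 10.55 and 11.24 in the bone marrow arrays, which is 148-fold lower (log2 difference -7.21, 95% interval -7.76 to -6.66, adjusted p = 2.3e-05 by limma). SAA1 encodes an acute-phase protein of inflammation and has 3 probe sets. Its probe set 15112999 was at 6.18, 4.92 and 4.85 in the blood-derived arrays, against 10.97, 10.78 and 11.50 in the bone marrow arrays (54.4-fold lower, adjusted p = 4.8e-04, kept in 9 of 9 fits).

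Probe set 15112997 of SAA1 was 66.5-fold lower (adjusted p = 0.0194) with a wide spread in the blood-derived arrays, at 7.53, 5.77 and 3.45, against 11.43, 11.46 and 12.04 in the bone marrow arrays. Leaving out any bone marrow array, or replicate 2 of the blood-derived arrays, ended its call (adjusted p up to 0.0796). The third, 15108047, was 7.39-fold lower (adjusted p = 0.00393). A probe set of the related gene SAA, chosen after its values were seen, was 4.23-fold lower (adjusted p = 0.0100). Genes of this family are near-identical, so these probe sets may read each other's transcripts and are not separate evidence. LOC100070893, also without a gene name, was 36.1-fold lower (5.31 to 7.04 in the blood-derived arrays, 10.60 to 11.57 in the bone marrow arrays, adjusted p = 0.00217). The tight junction molecule JAM2 fell 52.9-fold, and the growth factor FGF5, at the other end, rose 27.5-fold.

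Further called rises were those of DES, PDLIM3, ABCB1 and STMN1. DES, the intermediate filament protein desmin of muscle cells, was at 10.02, 8.41 and 8.68 in the blood-derived arrays and at 5.56, 5.57 and 5.02 in the bone marrow arrays (12.6-fold higher, adjusted p = 0.0048). PDLIM3, a PDZ and LIM domain protein of muscle, was at 8.10, 8.37 and 8.22 in the blood-derived arrays, against 4.72, 4.20 and 5.26 in the bone marrow arrays (11.4-fold, adjusted p = 0.0027). ABCB1, the drug efflux pump P-glycoprotein, was at 6.84, 8.10 and 7.33 in the blood-derived arrays, against 4.04, 4.34 and 4.08 in the bone marrow arrays (9.62-fold, adjusted p = 0.00363). These 3 rises were kept in all 9 fits. STMN1, which destabilises microtubules and is abundant in dividing cells, rose 8.12-fold (11.06 ± 0.33 against 8.03 ± 0.20, SD, n = 3 each, adjusted p = 0.0087 by limma).

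Other rises of this size held less firmly. CDA, a cytidine deaminase of nucleotide salvage, rose 12.6-fold (adjusted p = 0.0266) and the membrane transporter SLC46A2 11.3-fold (adjusted p = 0.0331), and they kept the call in 4 and 3 of 9 fits. NTM and AMIGO2, adhesion molecules known from neurons, rose 7.67-fold (adjusted p = 0.0394) and 7.05-fold (adjusted p = 0.0445) and kept the call in 1 and 2 of 9 fits. SERPINB7, a clade B serpin, rose 6.71-fold (adjusted p = 0.0226) and kept it in 4. SERPINB10, of the same clade, rose 15.2-fold (adjusted p = 0.0127) and kept it in 7, losing it where either of the first 2 bone marrow replicates was left out (adjusted p = 0.0539 and 0.0595).

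Falls of the same rank included A2M, the broad protease inhibitor alpha-2-macroglobulin, at 4.06, 3.85 and 4.11 in the blood-derived arrays and 7.13, 7.14 and 7.99 in the bone marrow arrays (10.6-fold lower, adjusted p = 7.0e-04). PPP1R3C, which brings protein phosphatase 1 to glycogen, was at 3.98, 3.74 and 3.92 in the blood-derived arrays, against 7.52, 6.54 and 8.21 in the bone marrow arrays (11.7-fold lower, adjusted p = 0.00376). ISLR, a leucine-rich repeat protein of stromal cells, was at 5.53, 4.85 and 5.29 in the blood-derived arrays, against 8.07, 8.34 and 8.18 in the bone marrow arrays (7.84-fold lower, adjusted p = 0.00117). RFTN1, a lipid raft protein, fell 7.36-fold (adjusted p = 0.00117) and FKBP1B, a binding protein of calcium release channels, 7.43-fold (adjusted p = 0.00814). All 5 falls were kept in 9 of 9 fits. RGCC, a regulator of the cell cycle, fell 16.5-fold (adjusted p = 0.038, 3 of 9 fits) and TPST1, a tyrosine sulphating enzyme, 6.39-fold (adjusted p = 0.0216, 4 of 9 fits). RANBP3L fell by 3.59 on the log2 scale (adjusted p = 0.012) and lost its call without bone marrow replicate 1 (0.0536). C1H15orf48 and LOC100050719 fell 9.56-fold (adjusted p = 0.0194) and 6.52-fold (adjusted p = 0.0209), each kept in 5 of 9 fits.

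Several smaller changes were among the steadiest across arrays. FBLN2, a fibulin of elastic fibres, was at 8.42, 8.57 and 8.42 in the blood-derived arrays and at 6.42, 6.32 and 6.58 in the bone marrow arrays (4.08-fold higher, adjusted p = 3.5e-04). GJA1, the gap junction protein connexin 43, was at 8.02, 8.55 and 8.19 in the blood-derived arrays, against 10.82, 10.81 and 10.80 in the bone marrow arrays (5.88-fold lower, adjusted p = 4.2e-04). SLIT2, a secreted axon guidance cue, was at 3.70, 3.66 and 3.56 in the blood-derived arrays, against 5.65, 5.80 and 5.84 in the bone marrow arrays (4.35-fold lower, adjusted p = 3.5e-04). No array of one group came near the other group in these genes, and without any 1 array their adjusted p stayed at 0.0041 or below.

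LECT2, a secreted chemotactic factor, rose 5.12-fold (5.64 ± 0.18 against 3.29 ± 0.31, n = 3 each, adjusted p = 0.00105 by limma), and BAIAP2L1, which shapes membranes and actin, rose 4.04-fold (adjusted p = 0.00233). Steady falls were those of ACSS3, an acyl-CoA synthetase (6.05-fold, adjusted p = 0.00156), ZNF449, a zinc finger protein (4.33-fold, adjusted p = 0.00153), SELENBP1, a selenium binding protein (3.99-fold, adjusted p = 0.00159), COLEC12, a scavenger receptor (3.28-fold, adjusted p = 0.00156), and HCFC1R1 (3.20-fold, adjusted p = 0.00105). Each kept its call in all 9 fits.

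Genes were next described by function, in 69 functional lists and 16 lists of cell type markers, with 1 probe set per gene. Of 2379 listed genes 2074 were measured. On this basis 0.564% of all genes rose and 0.696% fell (1.26% in all), and 11.5% lay above and 11.5% below without overlap between the 3 arrays of each group. By limma's unadjusted p under 0.05, called nominal below, 7.09% were higher and 7.29% lower. The functional lists held 79 of the 210 called genes, and 27 of the 69 held none. Most list medians lay near 0, and those farthest from it belonged to mitotic and replication genes, interferon-stimulated genes and MHC class I processing.

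**Figure D2:**
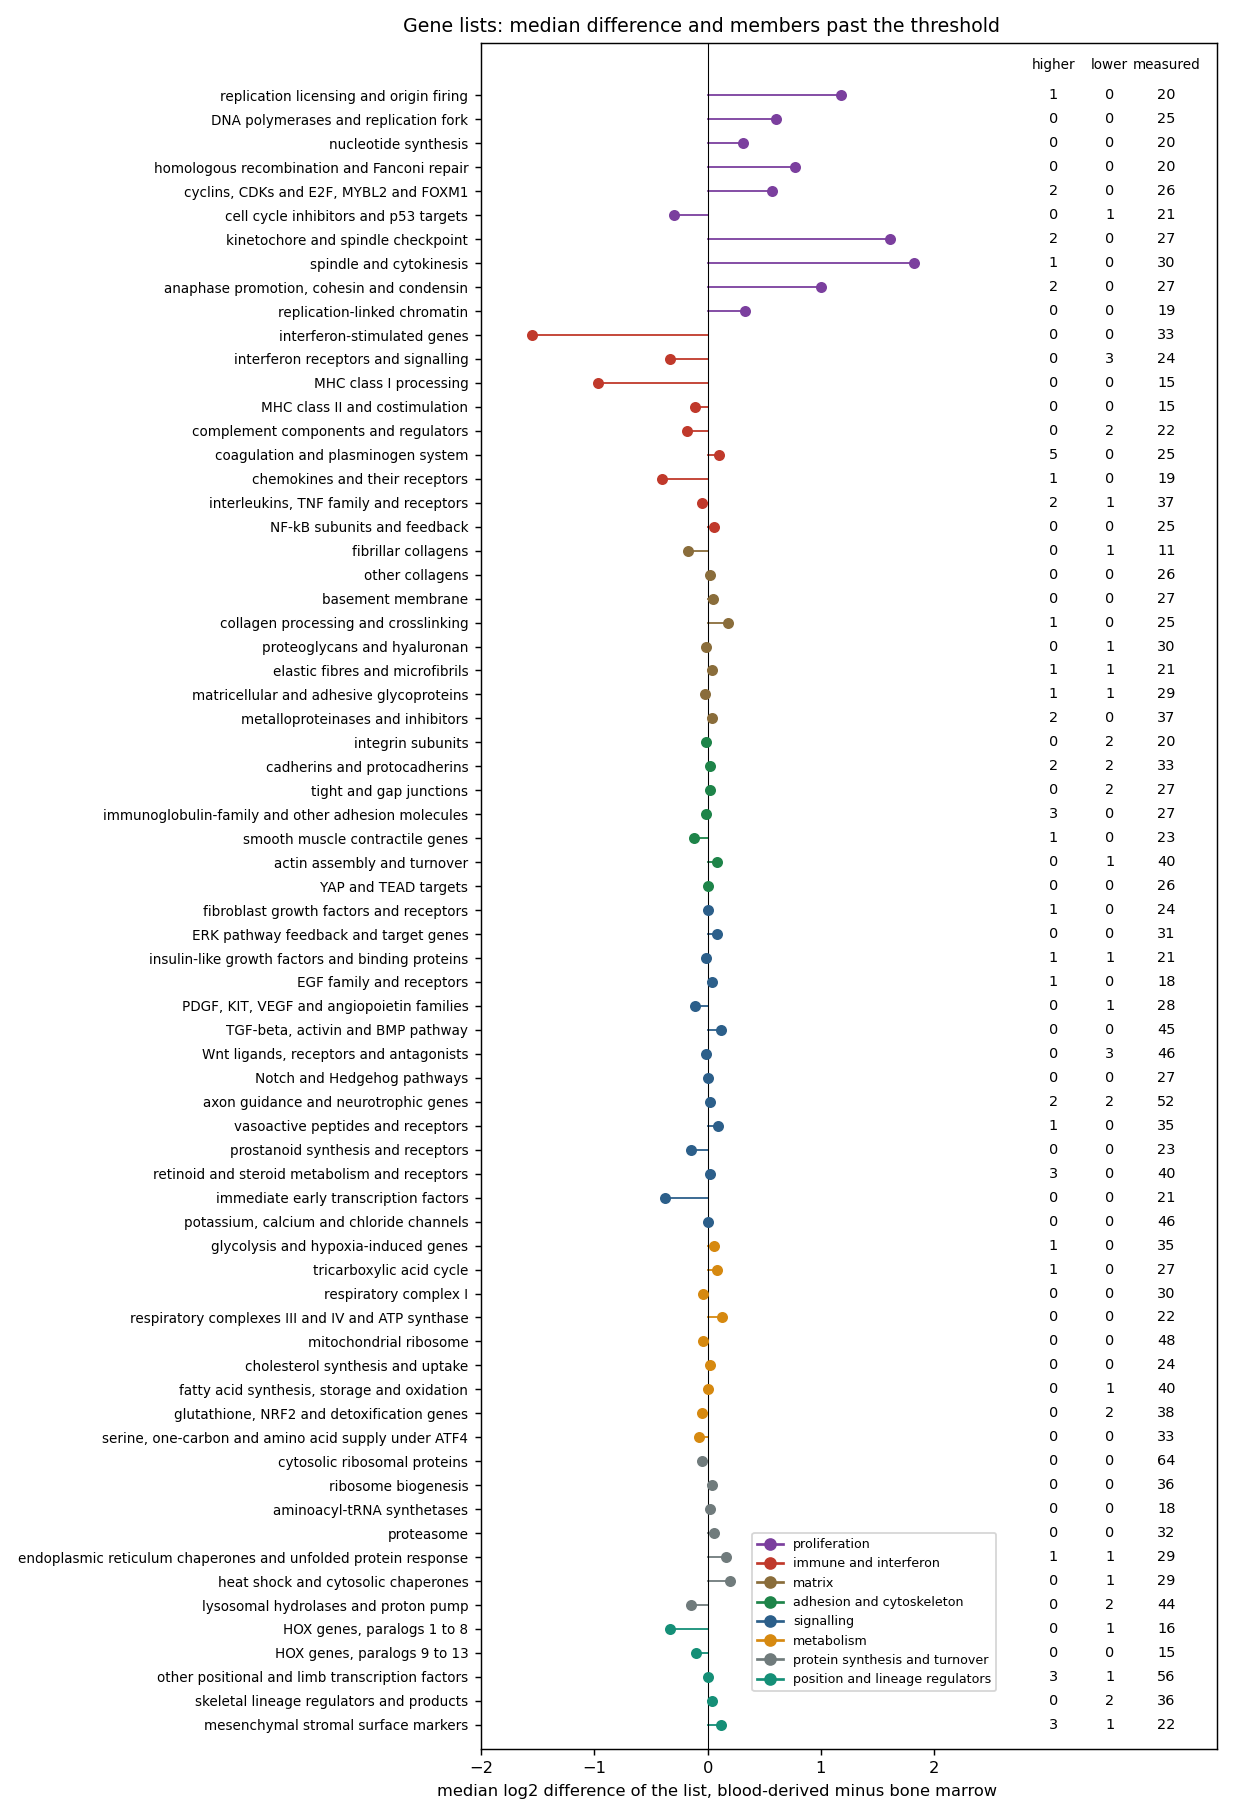
Each row is 1 of the 69 functional gene lists, coloured by theme, and the point is the median log2 difference of its measured genes, blood-derived minus bone marrow (x axis). The columns on the right give the members that rose, that fell and that were measured. Spindle and cytokinesis genes have the highest median, 1.82, and interferon-stimulated genes the lowest, -1.55.

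Nearly the whole program of DNA replication and mitosis stood higher in the blood-derived cells, though few passed the threshold one by one. Of the 214 genes in 9 proliferation lists 8 rose and 0 fell. In 151 genes, or 70.6%, the 3 blood-derived arrays all lay above the 3 bone marrow arrays, against 11.5% of all genes. The median log2 difference was 0.86, and 202 of the 214 genes had a difference above 0. Averaged over the 214 genes, the log2 level was 6.39, 7.02 and 6.51 in the blood-derived arrays, against 5.59, 5.71 and 5.54 in the bone marrow arrays. Blood-derived replicate 2 held the highest value in 180 of the genes. Without that array the median was 0.63, and 155 genes (72.4%) lay above without overlap, against 16.9% of all genes. In these bulk samples more dividing cells and more RNA per dividing cell cannot be told apart.

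Replication licensing and origin firing genes, which load and start the replicative helicase, had a median of 1.18 over 20 measured genes. All 20 were highest in blood-derived replicate 2, and 19 did not overlap. MCM6, a helicase subunit, was at 8.10, 8.89 and 8.36 in the blood-derived arrays and at 6.72, 6.85 and 6.46 in the bone marrow arrays (3.41-fold higher, adjusted p = 0.0425, kept in 2 of 9 fits). CDC45, which joins the helicase at firing, was at 6.09, 6.94 and 6.13 in the blood-derived arrays and at 4.34, 4.35 and 4.61 in the bone marrow arrays, with an adjusted p of 0.086 by limma. MCM5, GINS4 and MCM2 had log2 differences of 1.45, 1.21 and 0.96 at adjusted p of 0.0714, 0.0798 and 0.0972.

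Genes of the replication fork and of nucleotide supply were less far apart. DNA polymerase and fork genes had a median of 0.60 over 25 genes with 0 calls, 12 nominally higher and 16 above without overlap. The polymerase epsilon subunit POLE2 had a log2 difference of 2.22 (adjusted p = 0.141), the primase PRIM1 1.38 (0.178), the clamp loader RFC2 0.93 (0.118) and the fork protector TIPIN 1.13 (0.12). Nucleotide synthesis genes had a median of 0.31 over 20 genes, again with 0 calls and 7 nominally higher. RRM2, the regulated subunit of ribonucleotide reductase, was at 7.94, 8.84 and 8.18 in the blood-derived arrays and 5.53, 6.10 and 5.36 in the bone marrow arrays (log2 difference 2.66, adjusted p = 0.0564). CTPS1, DUT and UMPS, also of pyrimidine metabolism, had log2 differences of 1.43, 1.98 and 0.42 at adjusted p of 0.0747, 0.0949 and 0.171.

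Repair and chromatin genes that act at replication showed the same order of arrays. Homologous recombination and Fanconi genes had a median of 0.77, with all 20 differences above 0, 0 calls and 12 nominally higher. FANCD2, the ubiquitin target of the Fanconi pathway, had a log2 difference of 1.75 (adjusted p = 0.0781), its ubiquitin enzyme UBE2T 1.75 (0.0588) and the nuclease EXO1 2.19 (0.168). Replication-linked chromatin genes had a median of 0.33 over 19 genes with 0 calls, 7 nominally higher and 1 lower. Within that list the chromatin remodeller HELLS had a log2 difference of 2.50 (adjusted p = 0.111) and the histone methyltransferase EZH2 1.48 (adjusted p = 0.0972).

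Mitotic genes stood farthest apart. The list of spindle and cytokinesis genes had a median of 1.82, with all 30 differences above 0 and 28 genes not overlapping, and kinetochore and checkpoint genes had a median of 1.61 over 27. AURKA, a kinase of centrosomes and spindle, was at 7.66, 8.33 and 7.77 in the blood-derived arrays, against 6.22, 6.37 and 6.08 in the bone marrow arrays (3.24-fold higher, adjusted p = 0.0321). SPC25, of the kinetochore complex that holds microtubules, was at 7.96, 8.85 and 8.14 in the blood-derived arrays, against 5.24 ± 0.23 in the bone marrow arrays , SD, n = 3 (8.45-fold higher, adjusted p = 0.011 by limma). The checkpoint kinase BUB1B rose 5.73-fold (adjusted p = 0.0473). SPC25 lost its call without bone marrow replicate 1 (0.058), AURKA without any 1 of the 6 arrays compared (up to 0.126), and BUB1B likewise and without adipose replicate 3 (up to 0.161).

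Partners of these genes had differences of like size without a call. In the kinetochore NDC80 and NUF2 had log2 differences of 2.76 and 2.35 (adjusted p = 0.063 and 0.0548), and the centromere proteins CENPQ and CENPU 1.52 and 1.00 (0.0686 and 0.0694). On the spindle NUSAP1, KIF18A and AURKB had 2.46, 1.85 and 2.91 (adjusted p = 0.0552, 0.0833 and 0.0876), and CEP55, of the closing cell bridge, 2.95 (0.108). The 2 ubiquitin enzymes of the anaphase-promoting complex did rise: UBE2C by 2.79 on the log2 scale (adjusted p = 0.0408) and UBE2S by 1.45 (adjusted p = 0.032), each kept in 2 of 9 fits. Condensin genes NCAPD3, NCAPG and SMC2 had 1.00, 2.25 and 2.03 (adjusted p = 0.0516, 0.057 and 0.0579), and topoisomerase TOP2A 2.40 (0.064).

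Cyclins and their kinases had a median of 0.57 over 26 genes. CDK1, the kinase that starts mitosis, was at 9.18, 10.10 and 9.33 in the blood-derived arrays and at 6.25, 6.76 and 6.16 in the bone marrow arrays (8.84-fold higher, adjusted p = 0.0117), and its partner CCNB2 rose 6.78-fold (adjusted p = 0.0303). CDK1 lost its call without bone marrow replicate 1 (0.0625), and CCNB2 kept its own in 2 of 9 fits. The cyclins CCNB1 and CCNA2 had log2 differences of 2.81 and 2.78 at adjusted p of 0.064 and 0.0844.

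Growth-arrest genes leaned the other way. The list of cell cycle inhibitors and p53 targets had a median of -0.30, with 1 call and 17 of 21 differences below 0. Of the 21 genes 7 lay lower without overlap, against 11.5% of all genes. RBL2, a pocket protein of resting cells, was at 6.39, 6.28 and 6.44 in the blood-derived arrays and at 6.98, 7.23 and 7.28 in the bone marrow arrays (1.73-fold lower, adjusted p = 0.0342, kept in 3 of 9 fits). The p53 targets CCNG1, GADD45A and MDM2 had log2 differences of -0.72, -1.10 and -0.62 (adjusted p = 0.0769, 0.0847 and 0.326), and the antiproliferative gene BTG1 had -0.78 (0.252).

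**Figure D3:**
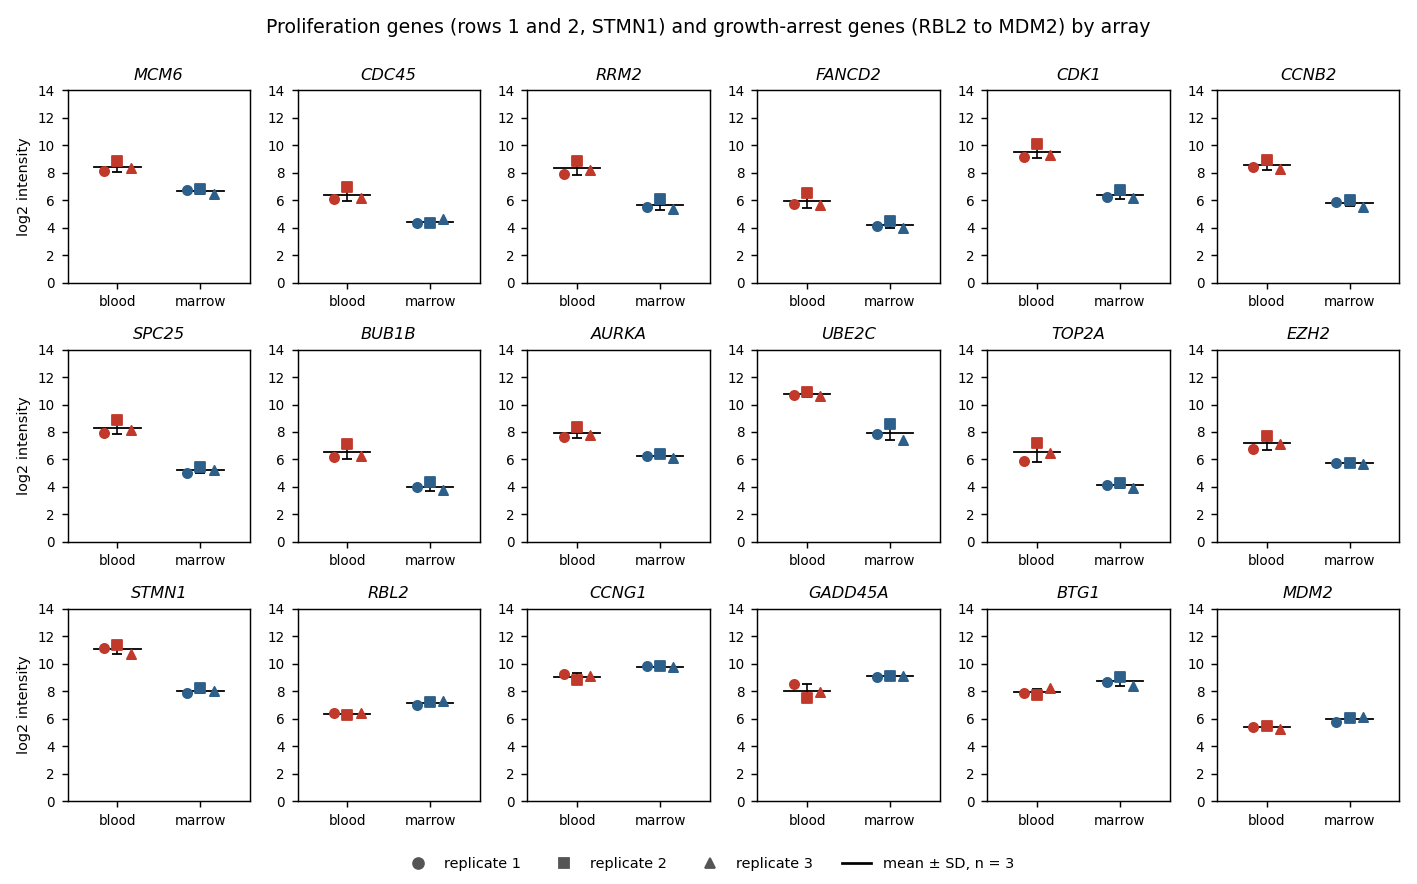
Log2 intensities (y axis) of 13 proliferation genes and 5 growth-arrest genes in the 3 blood-derived arrays (left of each panel) and the 3 bone marrow arrays (right), with mean ± SD. In each of the 13 proliferation genes, MCM6 to STMN1, the blood-derived points all lie above the bone marrow points, and in RBL2 all lie below, between 6.28 and 6.44.

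Interferon-stimulated genes stood lower in the blood-derived arrays, but most of the gap came with 1 bone marrow array. All 33 measured genes had a log2 difference below 0, with a median of -1.55, yet 0 passed the threshold, and 12 had an unadjusted p under 0.05 and lay lower, against 7.29% of all genes. Bone marrow replicate 3 held the highest value in 31 of the 33. Without that array the median was -0.53, 30 of 33 differences were below 0, and 19 genes (57.6%) lay lower without overlap, against 16.3% of all genes. With all arrays 19 did as well, against 11.5% of all genes.

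IFI44, a cytoplasmic interferon-induced protein, was at 5.02, 4.25 and 4.04 in the blood-derived arrays, against 6.19, 6.30 and 10.02 in the bone marrow arrays (log2 difference -3.07, adjusted p = 0.199). OAS1, which makes the second messenger that activates RNase L, was at 6.49, 5.85 and 5.82 in the blood-derived arrays, against 7.18, 7.33 and 9.60 in the bone marrow arrays (-1.99, adjusted p = 0.187). GBP5, a guanylate binding protein, was at 3.79, 3.78 and 3.85 in the blood-derived arrays, against 4.32, 4.84 and 10.94 in the bone marrow arrays. In all 3 genes the groups did not overlap, and bone marrow replicates 1 and 2 lay far closer to the blood-derived arrays than replicate 3 did. IFI44L and OAS2 had log2 differences of -2.97 and -1.80 (adjusted p = 0.288 and 0.234). The chemokines CXCL9 and CXCL10, by contrast, overlapped between groups apart from replicate 3, at 2.41 to 2.87 and 2.37 to 3.99 in the blood-derived arrays and 2.43 to 10.26 and 3.90 to 11.74 in the bone marrow arrays.

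Among receptors and signal carriers some fell with the 3 bone marrow arrays close together. Over the 24 genes of interferon signalling the median was -0.33, 3 fell and 0 rose, and bone marrow replicate 3 was highest in 11. STAT3, a transcription factor of the interleukin-6 and interferon pathways, was at 5.78, 5.57 and 5.58 in the blood-derived arrays and at 6.44, 6.49 and 6.48 in the bone marrow arrays (1.78-fold lower, adjusted p = 0.0162). IFNAR2, a chain of the type I interferon receptor, was at 4.97, 4.64 and 4.74 in the blood-derived arrays, against 5.82, 5.89 and 6.39 in the bone marrow arrays (2.38-fold lower, adjusted p = 0.0179). IFNGR2, a chain of the interferon-gamma receptor, fell 4.68-fold (3.53 to 4.79 in the blood-derived arrays and 6.16 to 6.48 in the bone marrow arrays, adjusted p = 0.0185). Without bone marrow replicate 3 STAT3 and IFNGR2 missed the threshold, at 0.0621 and 0.0701, and IFNAR2 kept it. They kept the call in 4, 5 and 6 of 9 fits, in the order STAT3, IFNGR2, IFNAR2. The transcription factors IRF9 and IRF2 had log2 differences of -1.43 and -0.89 (adjusted p = 0.244 and 0.175).

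Antigen presentation genes followed the same array. For MHC class I processing the median was -0.97 over 15 genes with 0 calls (1 nominally higher, 4 lower), and -0.15 without bone marrow replicate 3. PSMB10, a subunit of the immunoproteasome, averaged 6.57 ± 0.30 in the blood-derived arrays and 8.26 ± 1.51 in the bone marrow arrays (SD, n = 3 each), where replicates 1 and 2 were at 7.30 and 7.48 and replicate 3 was higher (adjusted p = 0.339 by limma). The peptide transporter TAP2, the peptide trimmer ERAP1 and the proteasome activator PSME2 had log2 differences of -1.48, -1.32 and -1.24 (adjusted p = 0.284, 0.154 and 0.208). MHC class II and costimulation genes had a median of -0.11 over 15 genes with 0 calls, 1 nominally higher and 3 lower. DRA, a class II chain, was at 4.39, 4.79 and 4.03 in the blood-derived arrays, against 7.07, 5.38 and 10.92 in the bone marrow arrays (adjusted p = 0.282), and the costimulator CD86 had a log2 difference of -1.03 (adjusted p = 0.0613).

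**Figure D4:**
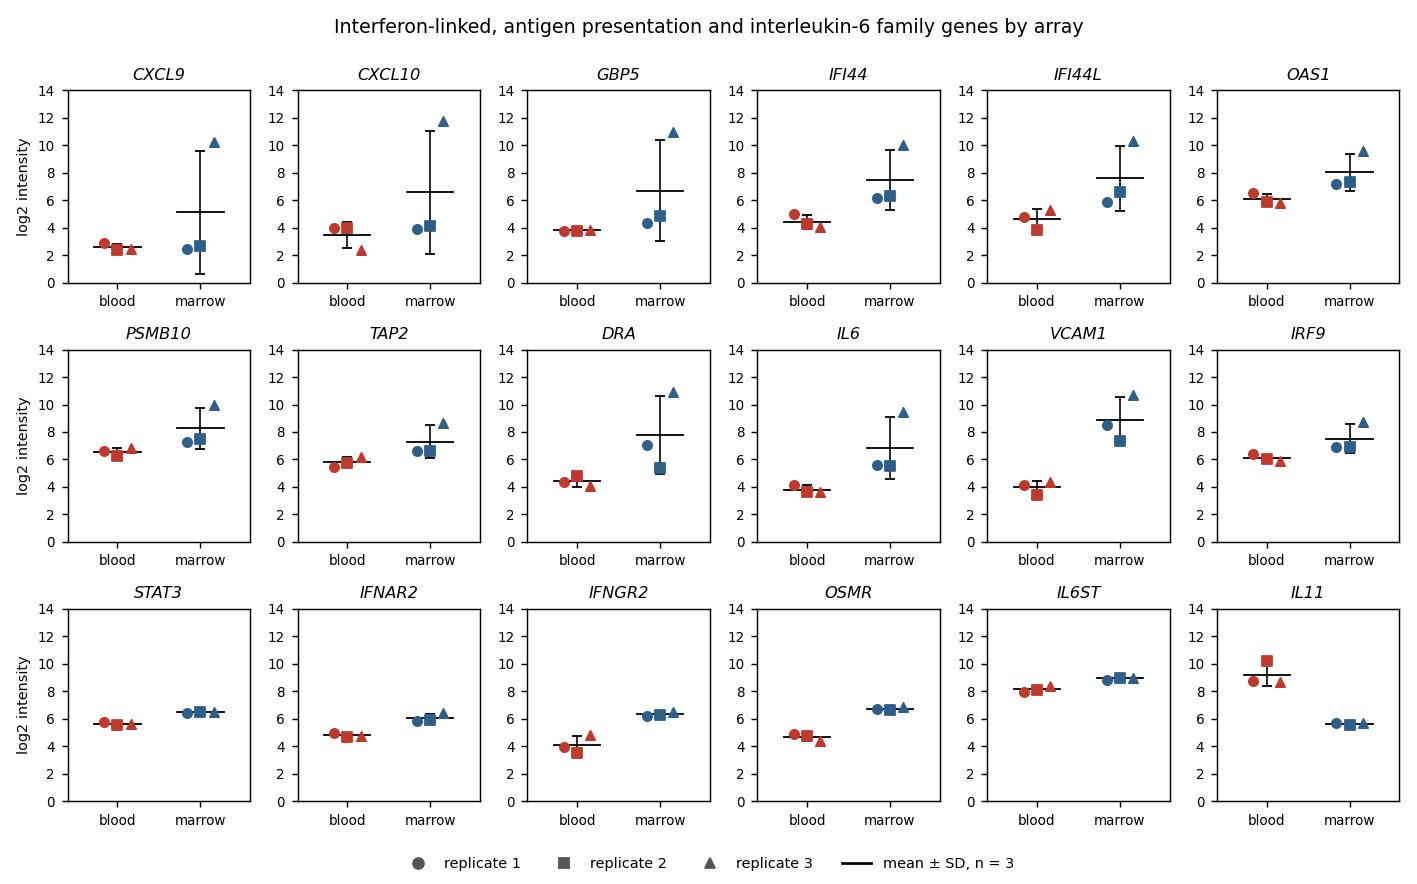
Log2 intensities (y axis) of 18 interferon-linked, antigen presentation and cytokine genes in the 3 blood-derived arrays (left) and the 3 bone marrow arrays (right), with mean ± SD and 1 symbol per replicate number. In CXCL9, CXCL10 and GBP5 the bone marrow triangle, replicate 3, lies between 10.26 and 11.74 and the other bone marrow points below 5. The bone marrow points lie closer together in STAT3 (6.44 to 6.49), OSMR (6.63 to 6.84) and IFNAR2 (5.82 to 6.39, replicate 3 highest).

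IL11 rose and OSMR, a receptor of the same cytokine family, fell. IL11, a member that acts on stromal and blood cells, was at 8.74, 10.18 and 8.67 in the blood-derived arrays and at 5.71, 5.52 and 5.68 in the bone marrow arrays (11.8-fold higher, adjusted p = 0.00408). OSMR, the receptor chain for oncostatin M, was at 4.90, 4.77 and 4.35 in the blood-derived arrays, against 6.72, 6.63 and 6.84 in the bone marrow arrays (4.16-fold lower, adjusted p = 0.00197). Both calls were kept in 9 of 9 fits. The shared signalling chain IL6ST was at 7.92, 8.12 and 8.37 in the blood-derived arrays, against 8.84, 8.98 and 8.96 in the bone marrow arrays, and missed the threshold (adjusted p = 0.0551). IL6 itself was at 4.15, 3.66 and 3.61 in the blood-derived arrays, against 5.59, 5.49 and 9.45 in the bone marrow arrays (adjusted p = 0.308).

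Among the 37 interleukin and TNF family genes 2 rose and 1 fell, and the median was -0.05. TNFRSF12A, the receptor for the cytokine TWEAK, rose 2.34-fold (10.49, 10.78 and 10.52 in the blood-derived arrays, 9.26, 9.41 and 9.43 in the bone marrow arrays, adjusted p = 0.0118) and missed the threshold where bone marrow replicate 1 (0.0638) or 2 (0.0562) was left out. IL18 had a log2 difference of 2.09 (adjusted p = 0.0703). The list of NF-kB subunits and feedback genes had 0 calls of 25, 2 nominally higher and 3 lower, and a median of 0.06. Within it the leukocyte adhesion molecule VCAM1 was at 4.12, 3.44 and 4.35 in the blood-derived arrays and at 8.48, 7.36 and 10.68 in the bone marrow arrays (log2 difference -4.88, adjusted p = 0.0513), and the apoptosis inhibitor BIRC2 had a log2 difference of 1.18 (0.139).

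Of 19 chemokine genes and receptors 1 rose, and the median was -0.40, or 0.03 when bone marrow replicate 3 was left out. The riser was ACKR4, a scavenging receptor for homeostatic chemokines (2.41-fold, adjusted p = 0.0408, kept in 1 of 9 fits). ACKR3, which binds CXCL12, was at 7.76, 7.48 and 7.51 in the blood-derived arrays, against 9.95, 9.93 and 10.13 in the bone marrow arrays (log2 difference -2.42, adjusted p = 0.0843). Its values lay close together within each group and did not overlap, and the spread used in the test also takes in the adipose arrays. CXCR4, the signalling receptor for CXCL12, was at 3.56, 3.98 and 5.93 in the blood-derived arrays, against 6.93, 6.99 and 6.26 in the bone marrow arrays (adjusted p = 0.147).

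In the coagulation and plasminogen list 5 of 25 genes rose and 0 fell, against 0.564% and 0.696% of all genes. The list median was 0.10, with 16 differences above 0 and 9 below, and 8 genes were nominally higher and 1 lower. Without overlap 9 lay higher and 1 lower, against 11.5% of all genes in each direction. SERPINB2, an inhibitor of plasminogen activators, was at 8.54, 9.43 and 9.54 in the blood-derived arrays and at 5.72, 5.01 and 3.46 in the bone marrow arrays (21.7-fold higher, adjusted p = 0.0126). TFPI, the inhibitor of the tissue factor pathway, was at 9.89, 10.75 and 10.86 in the blood-derived arrays, against 8.18, 7.93 and 8.73 in the bone marrow arrays (4.65-fold, adjusted p = 0.0139). PROCR, the endothelial protein C receptor, was at 9.70, 10.99 and 11.47 in the blood-derived arrays, against 7.82, 7.96 and 7.89 in the bone marrow arrays (7.10-fold, adjusted p = 0.0184). Bone marrow levels of PROCR were nearly equal, whereas blood-derived ones spread over more than 1 log2 unit.

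PLAUR, the urokinase receptor, rose 3.73-fold (adjusted p = 0.0218), and TFPI2, a related inhibitor, 9.25-fold (adjusted p = 0.0289). The 5 calls were kept in 4 to 6 of 9 fits. PLAU, the urokinase that PLAUR binds, was at 8.38, 9.02 and 8.46 in the blood-derived arrays, against 9.73, 9.81 and 10.71 in the bone marrow arrays (log2 difference -1.46, adjusted p = 0.14), and the tissue activator PLAT had a log2 difference of 1.90 (0.133). Of 22 complement genes 2 fell and 0 rose, with a median of -0.18. C1S and C1R, proteases of the first complement complex, fell 37.3-fold (adjusted p = 0.0194) and 27.7-fold (adjusted p = 0.0229), and lost the call without any 1 of the 6 arrays compared. CFI, which cuts C3b, had a log2 difference of -2.13 (adjusted p = 0.0579).

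Few collagen genes passed the threshold, which does not show equal levels, while individual matrix proteins changed by large steps. Of 11 fibrillar collagens 1 fell, COL11A1, a minor fibrillar chain, at 6.06, 5.78 and 6.06 in the blood-derived arrays and 7.82, 7.40 and 7.29 in the bone marrow arrays (2.90-fold lower, adjusted p = 0.011, kept in 9 of 9 fits). COL1A2, a chain of the main collagen of connective tissue, was at 10.54, 10.88 and 11.08 in the blood-derived arrays, against 11.30, 11.12 and 11.30 in the bone marrow arrays (adjusted p = 0.649). The minor chain COL5A1 had a log2 difference of -0.41 (adjusted p = 0.423). The fibrillar list had a median of -0.17, with 3 differences above 0 and 8 below. Without overlap 0 of its genes lay higher and 3 lower, against 11.5% of all genes in each direction. The 26 other collagens had 0 calls, 2 nominally higher, and a median of 0.02. The 27 basement membrane genes had 0 calls, 4 nominally higher and 2 lower, and a median of 0.05, with SMOC1, a calcium binding matrix protein, at -2.03 (adjusted p = 0.0634).

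Of 21 elastic fibre and microfibril genes 1 rose and 1 fell, and the list median was 0.04. FBLN2 rose, as given above, and FBLN5, which ties elastin to the cell surface, fell 7.76-fold, at 4.18, 4.08 and 3.84 in the blood-derived arrays and 6.72, 6.98 and 7.27 in the bone marrow arrays (adjusted p = 0.00293). MFAP5, a microfibril glycoprotein, was at 8.19, 9.21 and 10.14 in the blood-derived arrays, against 5.23, 4.33 and 4.35 in the bone marrow arrays. Its log2 difference of 4.55 was among the largest of all, but missed the threshold (adjusted p = 0.0693). FBN2, a fibrillin, and EFEMP1, a fibulin, had 0.56 and -2.69 (adjusted p = 0.132 and 0.139).

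Among the adhesive glycoproteins TNN, a tenascin of bone and stroma, rose 7.79-fold (8.27, 6.87 and 7.60 in the blood-derived arrays, 4.94, 4.78 and 4.13 in the bone marrow arrays, adjusted p = 0.00988), and ECM2 fell 5.08-fold (adjusted p = 0.0269). They kept the call in 9 and 4 of 9 fits. FN1, fibronectin, and TNC, tenascin C, had log2 differences of 1.10 and 1.30 (adjusted p = 0.113 and 0.122), and FNDC1 -1.09 (0.122). Of 30 proteoglycan genes 1 fell: SDC2, a cell surface heparan sulphate carrier, 9.82-fold (adjusted p = 0.0398, 3 of 9 fits). The small collagen-binding proteoglycans FMOD and LUM had -1.70 and -0.50 (adjusted p = 0.087 and 0.114).

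Enzymes that process matrix had a few calls. PCOLCE2, an enhancer of procollagen cleavage, rose 5.09-fold (adjusted p = 0.0445, 1 of 9 fits), and the crosslinking and hydroxylating enzymes LOXL1, PLOD3 and P4HA2 had log2 differences of 0.70, 0.72 and 0.69 (adjusted p = 0.113, 0.114 and 0.137). The 25 genes of that list had a median of 0.18, with 15 differences above 0 and 10 below. Of them 10 were nominally higher and 2 lower, against 7.09% and 7.29% of all genes. Without overlap 11 lay higher and 4 lower, against 11.5% of all genes in each direction. Of 37 metalloproteinase and inhibitor genes 2 rose and 0 fell. ADAM23, a disintegrin without protease activity, was at 6.57, 7.05 and 7.80 in the blood-derived arrays and at 3.45, 4.14 and 3.36 in the bone marrow arrays (11.3-fold higher, adjusted p = 0.00336, 9 of 9 fits), and ADAM12, an active relative, rose 2.22-fold (adjusted p = 0.0385, 3 of 9 fits). MMP19 and the inhibitor TIMP1 had log2 differences of 1.60 and 0.48 (adjusted p = 0.103 and 0.121).

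Of 33 cadherin and protocadherin list genes 2 rose and 2 fell, and the list median was 0.02. CDH2, N-cadherin, was at 6.11, 7.52 and 7.46 in the blood-derived arrays and at 5.01, 5.01 and 4.73 in the bone marrow arrays (4.31-fold higher, adjusted p = 0.0377). CDH11, the cadherin of osteoblasts and stroma, was at 7.68, 6.88 and 7.17 in the blood-derived arrays, against 8.91, 9.34 and 9.13 in the bone marrow arrays (3.69-fold lower, adjusted p = 0.01). CTNNA1, which links cadherins to actin, rose 1.60-fold with little spread, at 8.64, 8.66 and 8.71 in the blood-derived arrays and 8.02, 7.94 and 8.01 in the bone marrow arrays (adjusted p = 0.0385). FAT4, an atypical cadherin, fell 2.05-fold (adjusted p = 0.0311). CDH11 lost its call without bone marrow replicate 2 (0.0514), and the other 3 kept theirs in 2 or 3 of 9 fits. The protocadherin PCDH7 and the cadherin partner CTNNB1 had log2 differences of 1.37 and -0.74 (adjusted p = 0.0551 and 0.0646).

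Junction and integrin genes that passed the threshold fell. JAM2 was at 5.52, 5.39 and 4.68 in the blood-derived arrays, against 11.09, 11.03 and 10.63 in the bone marrow arrays, and it and GJA1 were the 2 calls among 27 tight and gap junction genes, whose median was 0.02. Of 20 integrin genes 2 fell. ITGBL1, a secreted integrin-like protein, was at 3.87, 4.99 and 3.98 in the blood-derived arrays and at 7.97, 7.74 and 7.47 in the bone marrow arrays (10.9-fold lower, adjusted p = 0.00725, 9 of 9 fits). ITGA11, a collagen receptor chain, fell 3.09-fold (adjusted p = 0.01, 7 of 9 fits). The common beta chain ITGB1 and the laminin receptor chain ITGA6 had log2 differences of 0.51 and 1.48 (adjusted p = 0.236 and 0.251).

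In the list of immunoglobulin-family and other adhesion molecules 3 of 27 rose. ALCAM, the CD166 antigen of stromal cells, was at 8.98, 9.49 and 9.77 in the blood-derived arrays and at 6.21, 6.81 and 6.31 in the bone marrow arrays (7.86-fold higher, adjusted p = 0.00336, 9 of 9 fits). CD44, the hyaluronan receptor, rose 1.87-fold (adjusted p = 0.0282) and the tetraspanin CD9 3.03-fold (adjusted p = 0.0411), both kept in 3 of 9 fits. CADM1 and CD151 had -1.04 and 1.10 (adjusted p = 0.0551 and 0.104). ALCAM, CD44 and CD9 are also 3 of the 22 mesenchymal surface markers, of which FAP, a serine protease of activated fibroblasts, fell 27.3-fold (adjusted p = 0.0075). NT5E, the CD73 antigen, was at 6.27, 6.51 and 4.99 in the blood-derived arrays, against 7.60, 7.72 and 8.41 in the bone marrow arrays (adjusted p = 0.0802).

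The smooth muscle and actin lists had 1 call each. DES was the single called gene of 23 smooth muscle contractile genes, whose median was -0.12, and CALD1, caldesmon, had a log2 difference of -0.62 (adjusted p = 0.291). GMFG, a debrancher of actin networks known from blood cells, was the single call among 40 actin genes, at 3.80, 3.73 and 4.28 in the blood-derived arrays and 8.80, 8.90 and 9.33 in the bone marrow arrays (33.7-fold lower, adjusted p = 4.1e-05). CORO1A and ARPC1B, also of actin networks, had -0.90 and 0.72 (adjusted p = 0.0631 and 0.0551). YAP and TEAD target genes had 0 calls of 26, 3 nominally higher and 2 lower, and a median of -0.00. ANKRD1, a target in that list, was at 11.57, 8.17 and 11.93 in the blood-derived arrays and at 6.65, 7.46 and 6.32 in the bone marrow arrays (adjusted p = 0.113).

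**Figure D5:**
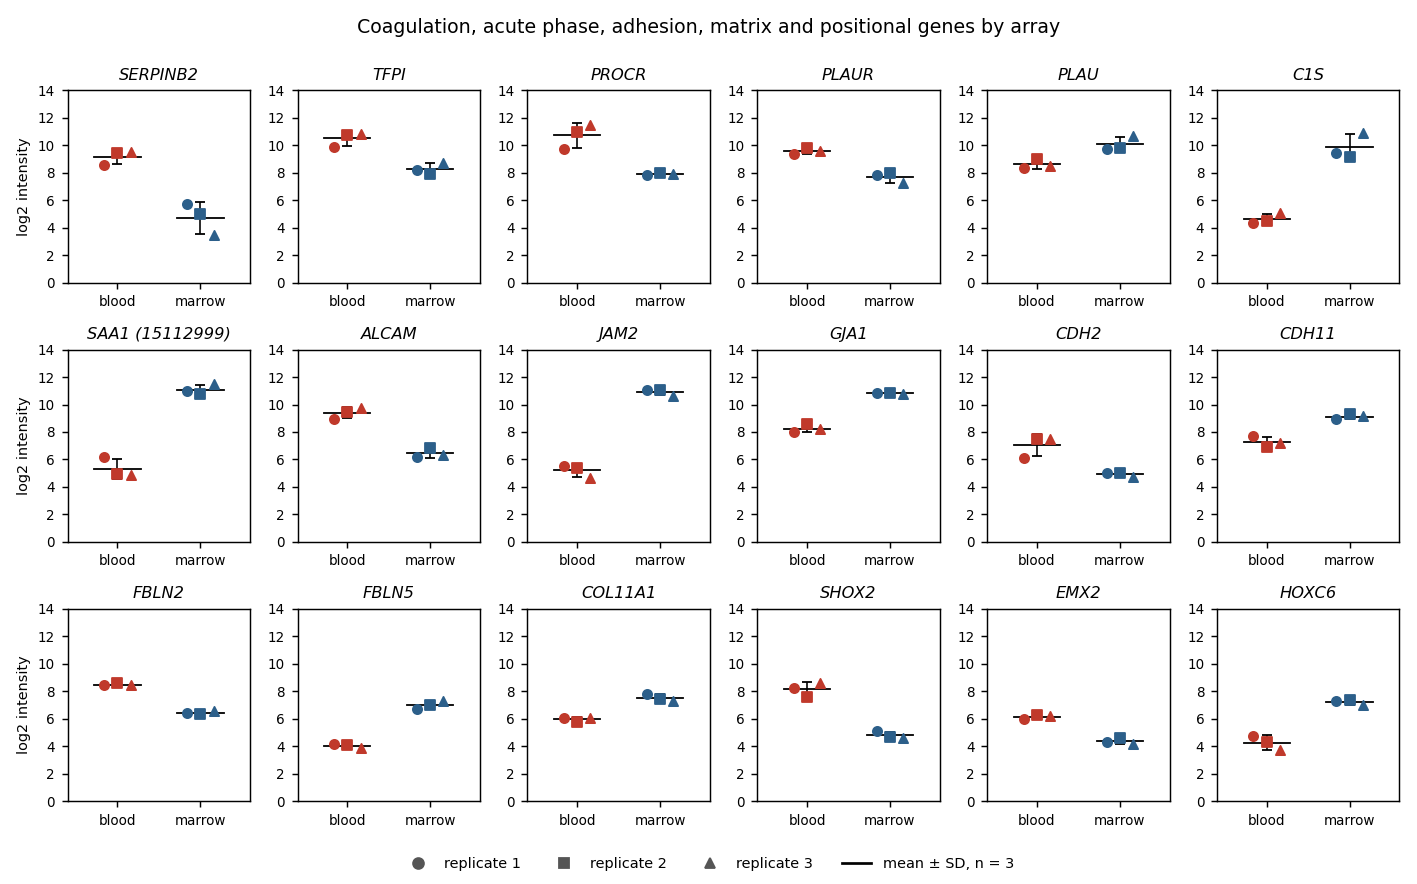
Log2 intensities (y axis) of 18 coagulation, complement, acute phase, adhesion, matrix and positional genes in the 3 blood-derived arrays (left) and the 3 bone marrow arrays (right), with mean ± SD. The groups do not overlap in any of the 18. PLAU is the single one that did not pass the threshold.

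Growth factor lists held few calls each, and whether they changed as pathways was not tested. In the insulin-like growth factor list of 21 genes the binding protein IGFBP3 rose 16.6-fold (adjusted p = 0.0101), the ligand IGF2 fell 16.8-fold (adjusted p = 0.00156), and IGF1 had a log2 difference of -1.45 (0.0755). IGF2 was kept in 9 of 9 fits, at 4.78, 4.40 and 4.52 in the blood-derived arrays and 8.71, 7.96 and 9.24 in the bone marrow arrays. IGFBP3 missed the threshold where bone marrow replicate 1 (0.0539) or 2 (0.0514) was left out. HBEGF, a membrane-anchored EGF receptor ligand, was at 7.63, 8.26 and 8.17 in the blood-derived arrays and at 5.66, 6.01 and 6.47 in the bone marrow arrays (3.92-fold higher, adjusted p = 0.0138, 5 of 9 fits). KITLG, stem cell factor, was at 6.03, 6.56 and 5.18 in the blood-derived arrays, against 7.95, 7.76 and 8.27 in the bone marrow arrays (4.20-fold lower, adjusted p = 0.0282, 4 of 9 fits). FGF5 was the single call among 24 fibroblast growth factor genes, and FGF2 had a log2 difference of 1.01 (adjusted p = 0.064).

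The Wnt list of 46 genes had 3 falls and 0 rises, with a median of -0.01. The receptor FZD1 was at 4.53, 4.28 and 4.02 in the blood-derived arrays and at 6.15, 5.88 and 5.50 in the bone marrow arrays (2.96-fold lower, adjusted p = 0.0291). The transcription factor TCF7L2 fell 2.28-fold (adjusted p = 0.0331) and RSPO3, which enhances Wnt signals, 3.54-fold (adjusted p = 0.0335). They were kept in 5, 2 and 3 of 9 fits. SFRP2, a secreted Wnt modulator, was at 8.87, 5.60 and 4.42 in the blood-derived arrays, against 10.44, 10.48 and 10.06 in the bone marrow arrays. Its log2 difference of -4.03 did not pass (adjusted p = 0.11) beside a blood-derived SD of 2.31.

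Lists of the TGF-beta and BMP pathway (45 genes), of Notch and Hedgehog (27), of ERK feedback (31), of prostanoids (23) and of ion channels (46) had 0 calls, with medians of 0.12, 0.00, 0.08, -0.15 and -0.00. In the same order 5, 3, 8, 1 and 1 genes were nominally higher and 4, 2, 5, 3 and 2 lower. The nearest members of the first were the receptors ACVR2A and TGFBR2, with log2 differences of -1.14 and -1.04 (adjusted p = 0.0613 and 0.0694). The Hedgehog co-receptor CDON had 1.05 (adjusted p = 0.114), the ERK-induced gene PHLDA1 1.16 (0.0553), the prostaglandin F receptor PTGFR -2.87 (0.0781) and the potassium channel KCNK2 -1.98 (0.0719). The PDGF, KIT and VEGF list of 28 genes had 1 fall, 0 rises and a median of -0.11, with 1 nominally higher and 8 lower. Without overlap 4 of its genes lay higher and 8 lower, against 11.5% of all genes in each direction. In this list PDGFRL and PDGFD had -2.39 and 1.13 (adjusted p = 0.0613 and 0.079).

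Neural and vasoactive genes held some of the largest steps. BDNF, a neurotrophin, was at 9.68, 8.89 and 9.08 in the blood-derived arrays and at 6.17, 6.42 and 5.66 in the bone marrow arrays (8.76-fold higher, adjusted p = 0.00233). SLITRK4, a neuronal membrane protein, rose 16.7-fold (adjusted p = 4.2e-04), while the membrane glycoprotein GPM6B fell 18.3-fold (adjusted p = 0.00135) and SLIT2 fell as given above. All 4 were kept in 9 of 9 fits, and the list of 52 genes had a median of 0.02. BDKRB1, the bradykinin receptor induced by injury, was the single call of 35 vasoactive genes (9.21, 8.91 and 8.83 in the blood-derived arrays, 5.20, 4.66 and 6.04 in the bone marrow arrays, 12.9-fold higher). The peptide hormone PTHLH and the lipid receptor S1PR3 had log2 differences of 2.11 and -1.64 (adjusted p = 0.108 and 0.106). PCSK1, a convertase of peptide hormones, and TPBG, a membrane glycoprotein, rose 25.6-fold (adjusted p = 0.01) and 14.7-fold (adjusted p = 0.00231), and leaving out bone marrow replicate 1 ended the call of PCSK1 (0.0508).

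Steroid and retinoid enzymes rose in 3 of 40 genes, with 0 falls. DHRS9, a short-chain dehydrogenase of retinoids and steroids, was at 10.48, 11.04 and 11.21 in the blood-derived arrays and at 8.23, 8.67 and 9.04 in the bone marrow arrays (4.80-fold higher, adjusted p = 0.0104). SRD5A1, steroid 5-alpha-reductase, was at 4.99, 5.76 and 5.07 in the blood-derived arrays, against 3.57, 3.40 and 3.71 in the bone marrow arrays (3.27-fold, adjusted p = 0.0131). CYP7B1, an oxysterol hydroxylase, was at 6.33, 6.20 and 6.09 in the blood-derived arrays, against 4.19, 4.61 and 4.90 in the bone marrow arrays (3.11-fold, adjusted p = 0.0194). DHRS9 lost its call without bone marrow replicate 2 (0.0514), SRD5A1 without replicate 1 or 2 of bone marrow (0.0638 and 0.0654), and CYP7B1 kept its own in 4 of 9 fits. The progesterone receptor PGR had a log2 difference of 0.86 (adjusted p = 0.086).

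Immediate early transcription factors, which respond within minutes to stimulation, had 0 calls of 21, 1 nominally higher and 7 lower, and a median of -0.38. Bone marrow replicate 1 was highest in 13 of the 21. FOSB was at 4.82, 4.50 and 4.70 in the blood-derived arrays and at 7.26, 6.39 and 4.94 in the bone marrow arrays (adjusted p = 0.251), and JUNB had a log2 difference of -0.82 (adjusted p = 0.251).

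Energy metabolism lists had medians near 0. Respiratory complex I genes (30) and those of complexes III, IV and ATP synthase (22) had 0 calls and medians of -0.04 and 0.13, and 22 and 17 of them had a 95% interval within -0.5 to 0.5. The complex III subunit UQCRC1 had a log2 difference of 0.39 (adjusted p = 0.195). Mitochondrial ribosome genes (48) had a median of -0.04 and 0 calls. At the nominal level 2, 1 and 4 genes of these 3 lists were higher and 0, 0 and 7 lower. Without overlap between the groups 5, 9 and 7 lay higher and 6, 1 and 15 lower, against 11.5% of all genes in each direction. IDH1, the cytosolic isocitrate dehydrogenase, rose 1.67-fold with a small spread, at 7.88, 7.90 and 7.99 in the blood-derived arrays and 7.22, 7.21 and 7.13 in the bone marrow arrays (adjusted p = 0.0222). CA9, a hypoxia-induced carbonic anhydrase, was at 10.47, 10.06 and 9.35 in the blood-derived arrays, against 8.09, 7.91 and 8.17 in the bone marrow arrays (3.74-fold higher, adjusted p = 0.0244). It was the single call of 35 glycolysis and hypoxia genes, whose median was 0.06, and EGLN3, an oxygen sensor induced by hypoxia, had 2.00 (adjusted p = 0.11). IDH1 and CA9 kept their calls in 4 and 5 of 9 fits.

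Lipid and detoxification enzymes that passed fell. ECH1, of fatty acid oxidation, fell 1.83-fold (adjusted p = 0.0388), the fatty acid carrier FABP3 had a log2 difference of -1.95 (0.064), and INSIG1, which holds back cholesterol synthesis, had -1.88 (0.0809) in a list of 24 cholesterol genes with 0 calls and a median of 0.02. CDO1, which oxidises cysteine, fell by 4.25 on the log2 scale (adjusted p = 0.0246), and the epoxide hydrolase EPHX1 8.74-fold (adjusted p = 0.0321), at 4.99, 5.73 and 5.06 in the blood-derived arrays and 8.79, 8.31 and 8.07 in the bone marrow arrays. ECH1, CDO1 and EPHX1 were kept in 2, 5 and 3 of 9 fits. The peroxide enzymes GPX3 and CAT had -2.65 and -1.37 (adjusted p = 0.112 and 0.156), and in GPX3 the bone marrow arrays spread from 5.75 to 8.33.

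The machinery of protein synthesis gave 0 calls. The 64 cytosolic ribosomal protein genes had a median of -0.05, with differences from -0.28 to 0.11, 62 had a 95% interval within -0.5 to 0.5, and 1 was nominally lower. Ribosome biogenesis (36 genes), tRNA synthetases (18), the proteasome (32) and the amino acid supply genes under ATF4 (33) also had 0 calls and medians of 0.04, 0.02, 0.06 and -0.08. Nominally higher were 0, 0, 3 and 2 of them, and lower 1, 0, 0 and 4. Folding and secretion genes had calls in both directions. The 29 endoplasmic reticulum chaperone and unfolded protein genes had a median of 0.16, with 22 differences above 0, 8 nominally higher and 1 lower. Without overlap 11 of them lay higher and 2 lower, against 11.5% of all genes in each direction. The 29 heat shock and cytosolic chaperone genes had a median of 0.20, with 19 above 0, 5 nominally higher and 3 lower. Without overlap 11 of these lay higher and 3 lower. EDEM1, of endoplasmic reticulum degradation, rose 2.57-fold (adjusted p = 0.0447), CREB3L1, a transcription factor of collagen secretion, fell 2.01-fold (adjusted p = 0.0304), and CRELD2 had 1.03 (0.0793). The chaperone HSPA4L fell 2.22-fold (adjusted p = 0.0478), and HSPB2 had -0.97 (0.0616). Of these calls EDEM1 was kept in 1 and the other 2 in 2 of 9 fits.

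Lysosomal genes leaned lower, with a median of -0.15 over 44 genes and 29 differences below 0. Of the 44 genes 2 fell and 0 rose, against 0.696% and 0.564% of all genes, and 8 were nominally lower and 1 higher. Without overlap 15 lay lower and 2 higher, against 11.5% of all genes in each direction. CTSC, a cathepsin that activates serine proteases of leukocytes, was at 3.66, 3.64 and 3.91 in the blood-derived arrays and at 6.31, 5.83 and 5.25 in the bone marrow arrays (4.18-fold lower, adjusted p = 0.0151, 7 of 9 fits). ATP6V0D2, a proton pump subunit of osteoclasts, fell 7.35-fold (adjusted p = 0.0385, 1 of 9 fits). CTSK, the collagen-degrading cathepsin of osteoclasts and fibroblasts, was at 8.90, 9.58 and 10.06 in the blood-derived arrays, against 11.66, 11.68 and 11.15 in the bone marrow arrays (adjusted p = 0.0798), and the ceramidase ASAH1 had a log2 difference of -1.09 (0.122).

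Transcription factors that mark position along the body axis and limb are known to differ between stromal cells of different sites. Of 56 such factors outside the HOX clusters 3 rose and 1 fell. SHOX2, of the proximal limb, was at 8.21, 7.59 and 8.63 in the blood-derived arrays and at 5.09, 4.69 and 4.58 in the bone marrow arrays (10.2-fold higher, adjusted p = 0.00135). EMX2, of the girdles and urogenital tract, was at 5.95, 6.24 and 6.20 in the blood-derived arrays, against 4.32, 4.62 and 4.15 in the bone marrow arrays (3.40-fold higher, adjusted p = 0.00475). HOXC6 was at 4.76, 4.29 and 3.70 in the blood-derived arrays, against 7.27, 7.39 and 7.01 in the bone marrow arrays (7.84-fold lower, adjusted p = 0.00336). These 3 were kept in 9 of 9 fits, as was EYA4, a transcriptional co-activator that fell 3.43-fold (adjusted p = 0.0019). TBX3, a limb T-box factor, rose 2.27-fold (adjusted p = 0.0301, 4 of 9 fits).

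HOX genes of paralog groups 1 to 8 had a median of -0.33, with 13 of 16 differences below 0 and 1 call. Of the 16 genes 6 lay lower without overlap, against 11.5% of all genes. HOXA5 and HOXD8 had log2 differences of -1.72 and -1.82 (adjusted p = 0.0647 and 0.147). Groups 9 to 13 had a median of -0.10 and 0 calls of 15, with differences from -1.82 to 0.28. Of these genes 0 were nominally higher and 3 lower, and 1 lay higher and 4 lower without overlap. The T-box gene TBX15 and the homeobox gene NKX3-2 had 1.46 and -0.78 (adjusted p = 0.0616 and 0.0537). Of 36 skeletal lineage genes 2 fell: SNAI2, a transcriptional repressor that promotes epithelial-mesenchymal transition, at 5.83, 5.21 and 6.16 in the blood-derived arrays and 7.88, 8.47 and 8.52 in the bone marrow arrays (5.89-fold, adjusted p = 0.0105, lost without bone marrow replicate 2 at 0.0551), and MKX, of tendon (3.31-fold, adjusted p = 0.0299, 3 of 9 fits). The bone matrix protein IBSP was at 4.78, 9.32 and 6.44 in the bone marrow arrays, where replicate 2 was high, and at 3.47 to 3.97 in the blood-derived arrays (adjusted p = 0.213). OMD, another bone matrix protein, had -2.47 (adjusted p = 0.199).

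Of 17 monocyte and macrophage markers 1 rose and 1 fell, the median was -0.29, and the mean log2 level of the list was between 4.26 and 4.41 in the blood-derived arrays and between 4.68 and 5.50 in the bone marrow arrays, highest in replicate 1. FCER1G, a signalling chain of Fc receptors, was at 4.49, 3.68 and 3.61 in the blood-derived arrays and at 8.67, 6.49 and 7.42 in the bone marrow arrays (12.1-fold lower, adjusted p = 0.0206, 6 of 9 fits). TYROBP, a myeloid adaptor, was at 5.14, 4.41 and 4.67 in the blood-derived arrays, against 8.13, 6.32 and 6.58 in the bone marrow arrays (adjusted p = 0.0579). SIRPA, a myeloid inhibitory receptor also found on other cells, rose 3.46-fold (adjusted p = 0.0344, 3 of 9 fits).

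Of the 13 pan-leukocyte markers 1 rose and 0 fell, with 4 lower and 1 higher at an unadjusted p under 0.05 and a median of -0.51. CD53, a tetraspanin of leukocytes, had a log2 difference of -1.69 (adjusted p = 0.118). The part of such cells in the differences of GMFG, CTSC and ATP6V0D2 was not tested. T and NK markers (18) had 0 calls and a median of -0.19, with bone marrow replicate 3 highest in 11 of them. Lists of B lymphocyte, neutrophil and mast cell, erythroid and platelet, endothelial, adipocyte, osteoblast, chondrocyte, epithelial and Schwann cell markers had 0 calls. Pericyte and skeletal muscle markers had 1 rise each, which was DES, osteoclast markers 1 fall, ATP6V0D2, and fibroblast markers 1 fall, FAP. In the adipocyte list the regulator PPARG was at 3.91, 3.51 and 3.88 in the blood-derived arrays, against 5.67, 4.36 and 5.60 in the bone marrow arrays (adjusted p = 0.291).

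Some genes varied more between the horses of a group than between groups. CRISP3, a secreted cysteine-rich protein, was at 11.80, 6.12 and 10.74 in the blood-derived arrays and at 9.07, 8.07 and 5.06 in the bone marrow arrays (adjusted p = 0.679). NDUFA4L2, a hypoxia-linked mitochondrial protein, was at 9.06, 10.35 and 4.65 in the blood-derived arrays, against 10.24, 10.25 and 10.05 in the bone marrow arrays (adjusted p = 0.57). IGFBP5, a binding protein of insulin-like growth factors, was at 9.86, 4.50 and 8.73 in the blood-derived arrays, against 4.78 ± 0.20 in the bone marrow arrays (SD, n = 3, adjusted p = 0.368 by limma). The blood-derived array that stood apart differed from gene to gene. In the bone marrow group CXCL11, an interferon-induced chemokine, was at 2.90, 3.16 and 9.82, with 3.37 to 4.04 in the blood-derived arrays.

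Among genes whose 95% interval of the log2 difference lay within -0.5 to 0.5, those of highest mean are given as a description of that choice. RPL18, a ribosomal protein, was at 13.08, 13.07 and 13.02 in the blood-derived arrays and at 13.01, 13.09 and 13.01 in the bone marrow arrays, with a 95% interval of the log2 difference from -0.20 to 0.24. TMSB4X, the actin-binding thymosin beta 4, and LGALS1, galectin 1, had intervals from -0.28 to 0.19 and from -0.10 to 0.40. The ribosomal protein RPS20, which was not drawn by that choice, had a log2 difference of -0.28 (adjusted p = 0.332).

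Where a gene had several probe sets, these did not always give the same call. Of 111 such genes 4 had a called probe set, and in 3 of these another probe set was not called. COMMD3, of endosomal sorting, fell 1.83-fold by probe set 15063254 (adjusted p = 0.0272), and probe set 15063264 had a log2 difference of -0.56 (adjusted p = 0.126). TSC22D1, a transcriptional regulator, fell 2.85-fold by probe set 15003389 (adjusted p = 0.0495), and 15003387 had -0.62 (0.38). In both genes the probe sets had the same sign. The third gene, SPI2, named as a serine protease inhibitor, fell 2.61-fold by probe set 15048020 (adjusted p = 0.0408), while its other 2 had log2 differences of -1.77 (0.113) and 0.19 (0.818).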

How the data were processed

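RNA of plastic-adherent equine cells was amplified, biotin-labelled and hybridised to Affymetrix arrays, per the labels' protocols. The deposited table holds log2 intensities, already normalized by the authors, for every probe set. Tools named in the submitters' processing notes are Affymetrix Expression Console, Transcriptome Analysis Console 3 and Partek 6.16.0419. The sources used here do not give the summarization, the normalization or the genome build. Array medians lay between 4.56 and 4.66, and values were taken as deposited.

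With limma 3.58.1 (R 4.3.3) group means of all 9 arrays were fitted together (6 residual degrees of freedom), tests were two-sided, and p-values were adjusted over 30559 probe sets. The steps were tested on simulated data. Gene lists used the probe set of highest mean per gene, and are given by counts and medians. Named genes were drawn from the 30 largest called changes per direction, called genes kept without each array, list members by p, and genes of extreme spread or equal level. Members, lists and rules were chosen with earlier results of these data known, and leaving out arrays from list medians and overlap counts was chosen after seeing the data. Replicate numbers do not pair the samples, which per the labels come from different horses. Sequences and coordinates were not used here. One pan-leukocyte marker, the called rise of that list and among the 30 largest rises, is not reported here.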

Additional observations from a re-analysis of the deposited data

How the results depend on the processing

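Of 30559 probe sets 249 were called, 107 rises and 142 falls, and the count moved most with how many features entered the adjustment and with which array was left out. With dim probe sets left out 479 were called, 232 higher and 247 lower, of which 409 named 1 gene, and the functional lists held 137 called genes in place of 79. With 1 probe set per gene 488 were called, 246 higher and 242 lower, and the lists held 155. Averaging the probe sets of each gene gave 157 in the lists. Fewer features enter the adjustment in all 3 settings. Leaving out 1 array gave 86 to 384 calls in all, 27 to 205 higher and 54 to 179 lower, 76 to 318 naming 1 gene, and 28 to 133 in the lists. Among the genes named in the text it gave 55 to 111 calls, against 118 with all arrays. The total was 86 without bone marrow replicate 1, 87 without replicate 2, 136 without replicate 3, and 125 and 129 when replicate 2 or 3 of the blood-derived arrays was omitted. It reached 384 when adipose replicate 2 was omitted, and the cause was not tested. The samples are not paired, and a fit with the replicate number as a replicate block called 263 probe sets, 145 higher and 118 lower. Without bone marrow replicate 3 the log2 differences of CXCL9, CXCL11 and TPSB2, none of them called, turned to 0.04, 0.70 and 0.01, and over the other fits without 1 array they reached -3.87, -2.76 and -3.14. The uncalled probe set 15048025 of SPI2 ran from -0.01, without blood-derived replicate 1, to 0.33. Quantile normalization, median centring, an intensity trend, robust fitting, the 2 groups alone and an added 2-fold criterion gave 221 to 313 calls. With the 2 groups alone 263 were called in all, but 86 of the 118 called genes named in the text were. With 3 arrays per group, absence of a call does not show equal levels.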
